A study of Medicago sativa with 12 samples.

Results

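The genes described here code for the part of the pentose phosphate pathway that alfalfa does not share with photosynthetic carbon fixation. They are the gene models whose KEGG annotation names the pentose phosphate pathway and not carbon fixation in photosynthetic organisms, and whose level averaged at least 1 FPKM (fragments per kilobase of transcript, scaled to the mapped fragments of the library) over all 12 libraries. The annotation alone gave 341 of the 164632 gene models, of which 79 had no count in any library. Of these, 146 members were chosen by their measured mean FPKM. The members just inside the threshold were MS.gene062757 at 1.01 FPKM and MS.gene040813 at 1.05 FPKM, and the models just outside were MS.gene29555 at 0.959 FPKM and MS.gene001439 at 0.910 FPKM. Because a model could pass through the group in which it was high, the counts and medians over the 146 members given here describe them and are no test.

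Messenger RNA was sequenced from leaves of alfalfa (Medicago sativa) seedlings of the cultivar zhongmu 1# grown in vermiculite, with 3 biological replicates in each of 4 groups. SM plants received 150 mM NaCl and 50 µM melatonin, S plants 150 mM NaCl, M plants 50 µM melatonin, and CK plants the nutrient solution that every group was given, with neither addition. The comparisons ask how salt, melatonin and their combination changed transcript levels. The libraries held 45862158 to 57192229 estimated counts.

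The pathway has an oxidative branch, in which glucose-6-phosphate dehydrogenase (G6PDH), 6-phosphogluconolactonase (6PGL) and 6-phosphogluconate dehydrogenase (6PGDH) turn glucose-6-phosphate into a pentose phosphate and reduce NADP+ to NADPH. A reversible branch then rearranges the sugars, and most of its enzymes also serve the Calvin cycle, so that transaldolase is the main one left outside carbon fixation. In leaves the oxidative steps exist in plastids and in the cytosol, and they are known as the supply of NADPH when light does not provide it. NADPH is used in biosynthesis and for keeping glutathione reduced.

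Of the 146 members, 42 coded for the oxidative branch (23 G6PDH, 8 6PGL and 11 6PGDH models) and 6 for transaldolase. Another 10 coded for enzymes that use or feed pentoses, namely 6 ribose-phosphate pyrophosphokinases (PRS, which make the activated ribose for nucleotides), 3 ribokinases and 1 gluconokinase. The steps shared with glycolysis held 63 members: 22 ATP-dependent phosphofructokinases (PFK), 22 pyrophosphate-dependent phosphofructokinases (PFP), 5 glucose-6-phosphate isomerases (GPI), 7 phosphoglucomutases (PGM) and 7 NADP-dependent glyceraldehyde-3-phosphate dehydrogenases (GAPN). The remaining 25 carried a pathway annotation but a description of another protein: 10 purine permeases, 8 OSB1 proteins, 6 acyl carrier proteins and 1 AP2-EREBP transcription factor. Alfalfa is an autotetraploid, and 134 members lay on the numbered copies of its 8 chromosomes, written here as 8.2 for copy 2 of chromosome 8, while 12 lay on unplaced contigs. Positions are those of the deposited table, whose genome build is not given in the sources used here, and they span whole gene models.

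Member levels ran between 1.01 and 169 FPKM, with a median of 6.13 FPKM. Transaldolase MS.gene71914 (chromosome 8.3, 19688173 to 19693428) was the most abundant, followed among the other enzymes by the highest GAPN, acyl carrier protein, 6PGL and PFP models. Single models were noisy: the SD within a group had a median of 43.2% of the mean over members and groups, against 20.6% for levels summed over all models with the same description. In 35 members, 1 library of a group had no count while another library of that group had at least 1 FPKM. Reads of near-identical chromosome copies can be split among models, so each comparison is given both for single models and for the description sums, which number 36 here among 15405 tested over the whole table. In bulk leaf RNA, fewer cells of a type and less RNA per cell cannot be told apart.

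Of the 36 enzyme descriptions, GAPN had the largest overall salt effect. This cytosolic enzyme oxidises glyceraldehyde-3-phosphate directly to 3-phosphoglycerate and makes NADPH, bypassing the phosphorylating dehydrogenase of glycolysis. Its 7 models together had 263, 232 and 308 FPKM in SM plants, 414, 618 and 498 FPKM in S plants, 71.7, 60.9 and 60.0 FPKM in M plants, and 69.6, 69.3 and 98.8 FPKM in CK plants. Every salt-treated library stood above every library without salt, and the SM libraries lay below the S libraries.

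The summed GAPN count rose in S plants against CK plants by 2.65 on the log2 scale (SE 0.22, adjusted p = 0.000197, edgeR's quasi-likelihood test, adjusted by Benjamini-Hochberg over all descriptions, as for every later adjusted p of a sum). It rose by 1.70 in SM plants against CK plants (SE 0.21, adjusted p = 0.00308) and by 2.01 in SM plants against M plants (adjusted p = 0.0024). Over both melatonin states the salt effect was 2.33 (SE 0.15, adjusted p = 2.17e-05). These 4 calls were kept without any 1 library and under every other setting tried. Between SM and S plants the sum differed by -0.95 (SE 0.21), with no overlap between the groups, but the difference did not pass after adjustment (edgeR, adjusted p = 0.289), whereas DESeq2 on the same sums called it with an adjusted p of 0.000958. The interaction of melatonin and salt was -0.64 (adjusted p = 0.614), and M plants differed from CK plants by -0.31 (adjusted p = 0.828). Markers of green leaf were also higher in salt-treated plants, with summed levels of 27359 to 48119 FPKM against 7148 to 23714 FPKM without salt, and their part in the GAPN difference was not tested.

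**Figure D1:**
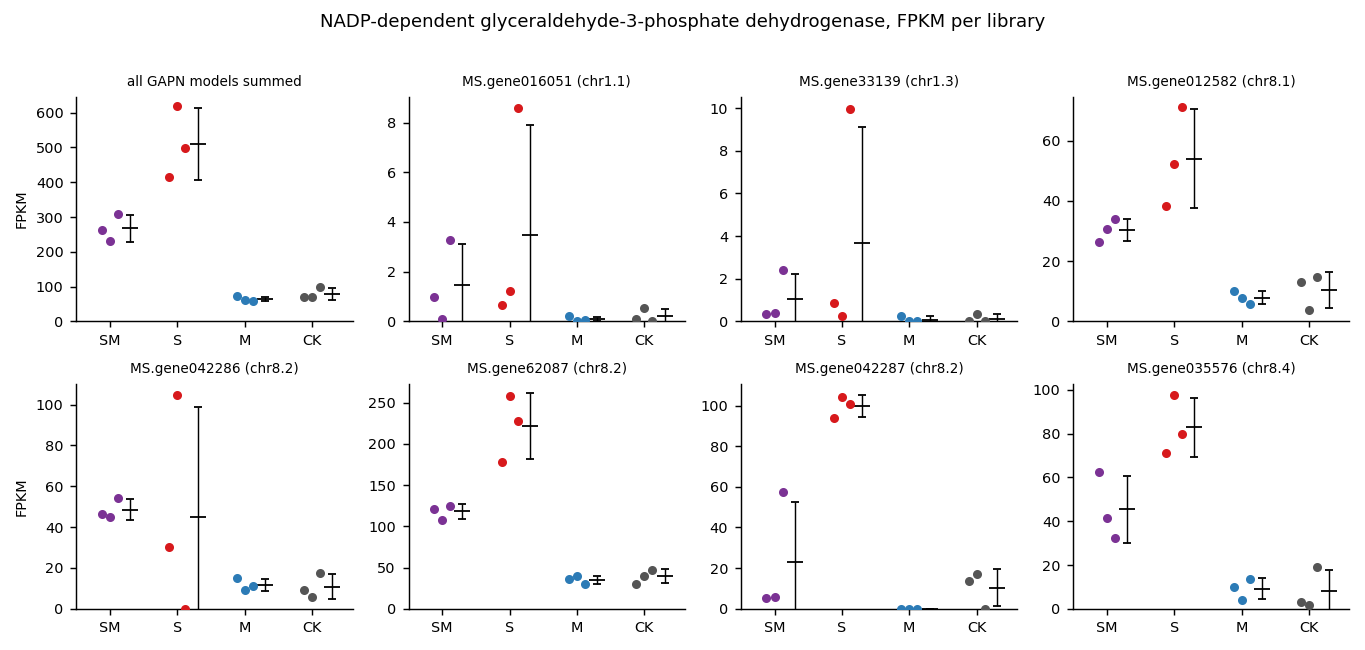
FPKM per library of the GAPN sum and of its 7 models in SM, S, M and CK plants; points are libraries, and the bar beside them is the mean with its SD (n = 3). The sum averaged 268 ± 38.6 FPKM in SM plants, 510 ± 102 FPKM in S plants, 64.2 ± 6.50 FPKM in M plants and 79.2 ± 16.97 FPKM in CK plants, and MS.gene62087 carried the largest share of it.

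The signal came mainly from chromosome 8, where 5 models held at least 96.3% of the GAPN sum in every library. MS.gene62087 (chromosome 8.2, 4014861 to 4019447, plus strand) alone held 40.4% to 65.3% of it. This model had 121, 108 and 125 FPKM in SM plants, 179, 257 and 228 FPKM in S plants, 36.1, 39.7 and 29.6 FPKM in M plants, and 30.5, 40.2 and 47.2 FPKM in CK plants. The salt-treated and the other libraries did not overlap. It rose by 2.54 in S plants against CK plants (SE 0.23, adjusted p = 0.00502) and by 1.59 in SM plants against CK plants (adjusted p = 0.0318), adjusted over the 50931 gene models tested by edgeR. It was also the only member that edgeR called higher in SM plants against M plants, by 1.77 (adjusted p = 0.0238). The SM vs CK call was lost whenever any 1 of the 6 libraries of that comparison was left out (adjusted p = 0.0615 to 0.106), and the SM vs M call without SM replicate 1 or any 1 of the M replicates (0.0549 to 0.0777), while the S vs CK call was kept in every such fit.

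In the copies on chromosomes 8.1 and 8.4 the salt-treated libraries also stood above the others. MS.gene012582 (chromosome 8.1, 2472908 to 2477530) had 26.4, 30.7 and 33.9 FPKM in SM plants, 38.4, 52.3 and 71.2 FPKM in S plants, 10.1, 7.83 and 5.83 FPKM in M plants, and 13.1, 3.67 and 14.8 FPKM in CK plants. It rose in S plants against CK plants by 2.41 (adjusted p = 0.0407), a call that no fit without 1 of the 6 libraries kept (adjusted p = 0.0594 to 0.109), and its overall salt effect was 2.19 (adjusted p = 0.00632). MS.gene035576 (chromosome 8.4, 2180821 to 2185367) had 62.4, 41.6 and 32.5 FPKM in SM plants, 71.0, 97.8 and 79.8 FPKM in S plants, 9.98, 4.23 and 13.4 FPKM in M plants, and 3.09, 1.66 and 19.2 FPKM in CK plants. The overall salt effect of this copy was 2.87 (adjusted p = 0.0216, and 0.0540 without M replicate 1), and its difference between S and CK plants was 3.46 (adjusted p = 0.0788).

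Copy 2 of chromosome 8 carried 2 further models that switched between libraries. MS.gene042287 (chromosome 8.2, 4029614 to 4033166) had 5.35, 5.97 and 57.4 FPKM in SM plants and 94.0, 104 and 101 FPKM in S plants, no count in any M plant, and 13.8, 17.2 and 0.114 FPKM in CK plants. With each M library set at a floor of 3 counts, it was at least 642-fold higher in SM plants than in M plants (at least 161-fold without SM replicate 3). By the same floor it was at least 300-fold lower in M plants than in CK plants (at least 201-fold without CK replicate 2). Salt was called for it over both melatonin states (adjusted p = 0.0187). MS.gene042286 (chromosome 8.2, 3990122 to 3994370) had 46.2, 44.8 and 54.2 FPKM in SM plants, 30.3 and 104 FPKM and no count in S plants, 15.0, 9.07 and 11.05 FPKM in M plants, and 9.03, 5.62 and 17.6 FPKM in CK plants. No contrast of this model passed, and 1 S library lacked it altogether.

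The 2 GAPN models on chromosome 1 were rare. MS.gene016051 (chromosome 1.1, 7736990 to 7741227) had 1.004, 0.0937 and 3.29 FPKM in SM plants, 0.678, 1.22 and 8.57 FPKM in S plants, 0.213, 0.0368 and 0.0606 FPKM in M plants, and 0.115 and 0.528 FPKM and no count in CK plants. Its difference between S and CK plants was 4.02 with an adjusted p of 0.305. MS.gene33139 on chromosome 1.3 was likewise highest in 1 S library, at 9.95 FPKM. The fitted log2 fold change between S and CK plants was positive for each of the 7 GAPN models, with a median of 3.27. MS.gene016051 and MS.gene33139 reached the mean of 1 FPKM only through salt-treated libraries, so the choice of members favoured their positive sign. The shared sign and the median describe the 7 models and are no test.

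The ATP-dependent phosphofructokinases, which commit fructose-6-phosphate to glycolysis, kept overlapping totals. Of their isoforms, the PFK4 sum fell with salt, mainly through MS.gene21592 (given below), and the PFK2 sum rose. The sums of the others were not called by edgeR. The PFK members together had 198, 186 and 203 FPKM in SM plants, 182, 218 and 296 FPKM in S plants, 232, 279 and 212 FPKM in M plants, and 181, 222 and 259 FPKM in CK plants. The plastid form PFK4 (chloroplastic isoform X2, 6 models) had 24.1, 27.9 and 32.9 FPKM in SM plants, 25.5, 38.6 and 27.7 FPKM in S plants, 54.7, 64.8 and 82.3 FPKM in M plants, and 41.8, 60.1 and 65.4 FPKM in CK plants. All 6 salt-treated libraries lay below all 6 others.

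The PFK4 sum fell by 0.99 on the log2 scale in S plants against CK plants (SE 0.26, adjusted p = 0.0325), fell by 1.14 in SM plants against CK plants (adjusted p = 0.0280) and fell by 1.34 in SM plants against M plants (adjusted p = 0.0161). Over both melatonin states the effect was -1.17 (adjusted p = 0.00163) and was called without any 1 of the 12 libraries. The 2-group calls rested on fewer libraries: the S vs CK call was lost without CK replicate 2 or 3 or S replicate 1 or 3 (adjusted p = 0.0957 to 0.107), the SM vs CK call without CK replicate 2 or 3 or any 1 SM replicate (0.0566 to 0.0956), and the SM vs M call without SM replicate 1 or 2 (0.0571 to 0.0694). PFK2 (4 models) went the other way, with 69.1, 74.5 and 90.6 FPKM in SM plants, 72.9, 90.3 and 164 FPKM in S plants, 57.9, 77.0 and 39.2 FPKM in M plants, and 50.7, 53.3 and 69.3 FPKM in CK plants. Here the overall salt effect was 0.65 (SE 0.21, adjusted p = 0.0455), a call that held without 1 library in 3 of 12 fits, while its difference between S and CK plants was 0.89 (adjusted p = 0.0756).

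As shares of the PFK sum, PFK4 made up 12.1% to 15.99% in SM plants, 9.25% to 17.4% in S plants, 22.9% to 38.1% in M plants and 23.0% to 26.6% in CK plants. PFK2 made up 34.7% to 44.1% in SM plants, 38.9% to 54.8% in S plants, 18.1% to 27.2% in M plants and 23.6% to 27.9% in CK plants. The salt-treated and the other libraries did not overlap in either share. The 7 models of PFK3 were split by chromosome. As a sum they showed an overall salt effect of -0.32, which did not pass (adjusted p = 0.121). The sums of PFK5 (-0.41, adjusted p = 0.167), PFK6 (0.0061, adjusted p = 0.996) and PFK7 (-0.00063, adjusted p = 0.9996) did not pass either.

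On chromosome 4, 3 PFK3 models fell with salt. MS.gene06155 (chromosome 4.2, 2964179 to 2967793) had 13.2, 7.74 and 10.2 FPKM in SM plants, 8.78, 6.80 and 6.18 FPKM in S plants, 26.0, 25.8 and 17.5 FPKM in M plants, and 21.2, 27.7 and 32.7 FPKM in CK plants. It fell by 1.87 in S plants against CK plants (SE 0.36, adjusted p = 0.0215), a call lost without CK replicate 2, CK replicate 3 or S replicate 3 (0.0692 to 0.0739), and its overall salt effect was -1.49 (adjusted p = 0.00447). MS.gene049042, on the same chromosome copy, had 4.38, 2.49 and 4.005 FPKM in SM plants, 4.81, 2.35 and 1.15 FPKM in S plants, 9.82, 18.2 and 11.97 FPKM in M plants, and 6.30, 9.74 and 12.9 FPKM in CK plants, with an overall salt effect of -1.80 (adjusted p = 0.0225, but 0.0561 without CK replicate 3 and 0.0539 without SM replicate 2).

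The third, MS.gene015846 on chromosome 4.3, had 0.927, 0.0763 and 0.179 FPKM in SM plants, 0.0859 and 0.0296 FPKM and no count in S plants, 10.6, 0.492 and 0.130 FPKM in M plants, and 4.77, 8.90 and 5.60 FPKM in CK plants. Its overall salt effect was -5.17 (adjusted p = 0.0391), a call that held in 2 of the 12 fits without 1 library, and 1 of the 3 M libraries carried nearly all of the M level. In contrast, the most abundant PFK model, MS.gene66384 on chromosome 6.2 and also described as PFK3, averaged 27.0 ± 6.31 FPKM in SM plants, 29.9 ± 6.51 FPKM in S plants, 24.2 ± 13.0 FPKM in M plants and 20.5 ± 1.78 FPKM in CK plants, and was not called in any comparison.

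Of the single PFK4 models, MS.gene21592 (chromosome 1.3, 63111654 to 63119839) had the clearest difference. It had 7.75, 14.2 and 10.96 FPKM in SM plants, 8.80, 19.2 and 6.17 FPKM in S plants, 26.4, 35.9 and 50.04 FPKM in M plants, and 28.5, 42.9 and 46.7 FPKM in CK plants. Its overall salt effect was -1.77 (adjusted p = 0.0147), while the differences of -1.75 in S plants and -1.84 in SM plants, each against CK plants, did not pass on their own (adjusted p = 0.0946 and adjusted p = 0.128). The fall of the PFK4 sum between CK and S plants lay mainly in this model. On chromosome 1.4, the PFK4 model MS.gene005709 had 4.04, 6.67 and 5.97 FPKM in S plants against 1.38, 2.89 and 2.36 FPKM in CK plants. MS.gene005711, another PFK4 model there, overlapped, with 8.21, 10.1 and 7.35 FPKM in S plants against 8.78, 8.63 and 10.1 FPKM in CK plants.

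The member described as a putative AP2-EREBP transcription factor, MS.gene050199, carries the KEGG number of phosphofructokinase, K00850. It is a model of 303 bases on chromosome 1.4 (31342072 to 31342374, plus strand), 6748 bases after the end of MS.gene050198, and it closes a run of 4 K00850 models on that strand that starts at 31302110, the other 3 of which are described as PFK4. MS.gene050199 had 9.75, 14.9 and 13.4 FPKM in SM plants, 9.73, 9.90 and 8.69 FPKM in S plants, 58.6, 90.5 and 64.5 FPKM in M plants, and 21.2, 35.2 and 32.7 FPKM in CK plants. The M, CK and salt-treated libraries formed 3 ranges that did not overlap. It fell by 1.61 in S plants against CK plants (SE 0.35, adjusted p = 0.0425) and fell by 2.46 in SM plants against M plants (adjusted p = 0.0269), and its overall salt effect was -2.04 (adjusted p = 0.00257). The overall call was kept without any 1 library, whereas the S vs CK call was kept only without CK replicate 1 (0.0490, otherwise 0.0827 to 0.131) and the SM vs M call only without M replicate 3 (0.0488, otherwise 0.0555 to 0.0818). Its difference of 1.24 between M and CK plants did not pass (adjusted p = 0.702). Of the other 3 models of the run, MS.gene050198 averaged 0.471 FPKM over the 12 libraries. MS.gene005709 and MS.gene005711, given above, did not have their S libraries below all CK libraries. Whether the reads of MS.gene050199 belong to a transcription factor or to the neighbouring phosphofructokinase transcripts was not tested.

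**Figure D2:**
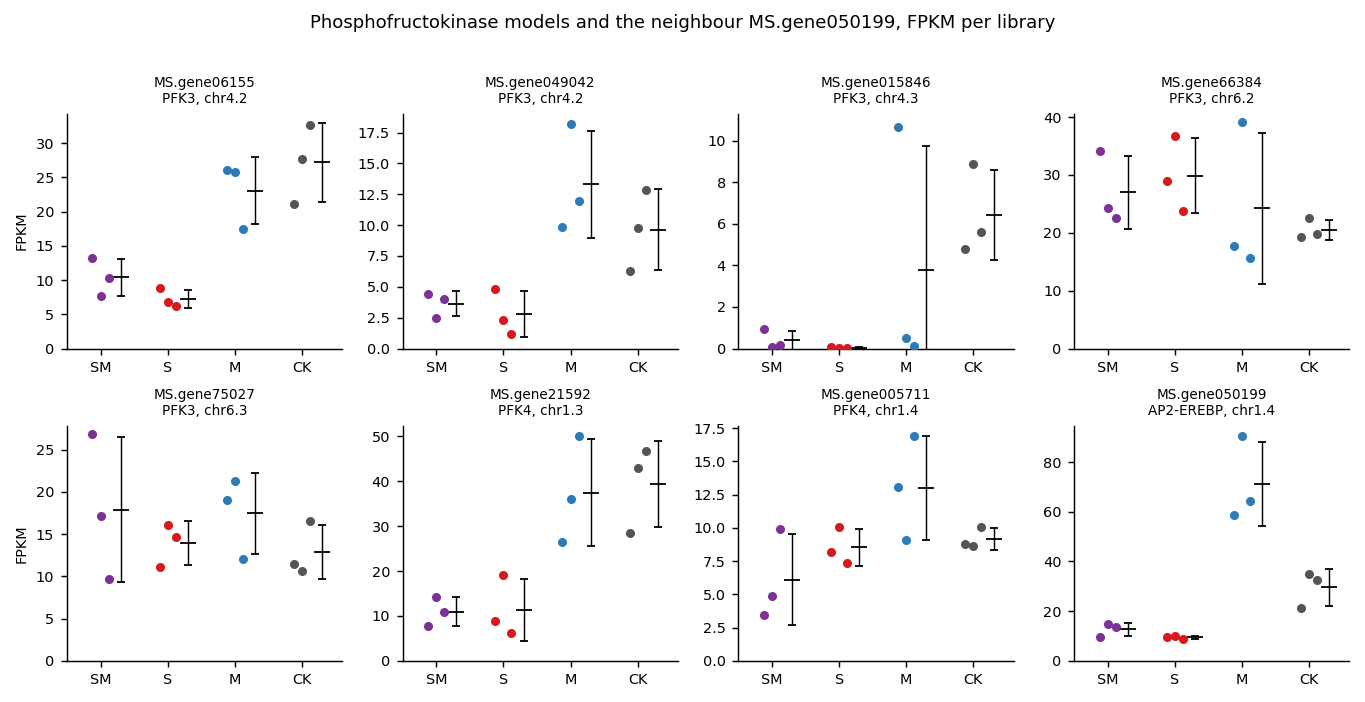
FPKM per library of 7 PFK models and of MS.gene050199 in SM, S, M and CK plants; points are libraries and bars are the mean with its SD (n = 3). MS.gene06155, MS.gene049042 and MS.gene21592 were lower with salt, MS.gene66384 was not, and MS.gene050199 lay between 58.6 and 90.5 FPKM in M plants, above its level in every other group.

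In the oxidative branch the G6PDH and 6PGDH totals overlapped between S and CK plants, whereas the 6PGL total did not. The G6PDH members, which catalyse the committed first step, together had 108, 142 and 112 FPKM in SM plants, 104, 129 and 135 FPKM in S plants, 128, 149 and 108 FPKM in M plants, and 128, 97.8 and 101 FPKM in CK plants, so the 4 groups overlapped. The 6PGDH members, which release CO2 and make the second NADPH, averaged 106 ± 9.99 FPKM in SM plants, 120 ± 2.85 FPKM in S plants, 118 ± 11.997 FPKM in M plants and 111 ± 14.3 FPKM in CK plants. The 6PGL members together had 208, 164 and 175 FPKM in SM plants, 211, 295 and 220 FPKM in S plants, 172, 136 and 177 FPKM in M plants, and 169, 160 and 140 FPKM in CK plants. Every S library stood above every CK library, with a ratio of means of 1.55 that has no test.

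The plastid lactonase 6PGL5, which hydrolyses the product of G6PDH, was the oxidative enzyme with the clearest response. Its 4 models together had 172, 140 and 142 FPKM in SM plants, 182, 242 and 196 FPKM in S plants, 117, 106 and 105 FPKM in M plants, and 101, 117 and 101 FPKM in CK plants. The ranges of SM and S plants were separate from each other and from those without salt. The sum rose in S plants against CK plants by 0.94 (SE 0.17, adjusted p = 0.00738), and its overall salt effect was 0.69 (adjusted p = 0.00308). The differences of 0.47 between SM and CK plants (adjusted p = 0.133) and -0.47 between SM and S plants (adjusted p = 0.481) did not pass. The other lactonase, 6PGL1, had 36.2, 24.3 and 33.7 FPKM in SM plants, 29.2, 53.8 and 24.2 FPKM in S plants, 55.3, 30.3 and 71.8 FPKM in M plants, and 68.2, 43.1 and 38.8 FPKM in CK plants, and its overall salt effect of -0.67 did not pass (adjusted p = 0.126). No single 6PGL model was called, and the most abundant one, MS.gene06647 on chromosome 3.3, had 47.4, 61.0 and 30.1 FPKM in SM plants, 61.4, 61.7 and 77.1 FPKM in S plants, 30.9, 30.6 and 34.1 FPKM in M plants, and 27.8, 51.0 and 51.1 FPKM in CK plants.

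Among the dehydrogenases, salt over both melatonin states was called higher for a cytosolic G6PDH sum. It was called lower for a plastid G6PDH and a plastid 6PGDH sum. The remaining G6PDH sums were not called. Their effects were 0.36 for the other cytoplasmic isoform (adjusted p = 0.502) and 0.44 for the putative NADP+ form (adjusted p = 0.679). Plastid G6PDH4 isoforms X1 and X2 had -0.22 (adjusted p = 0.593) and -0.16 (adjusted p = 0.957). Cytoplasmic G6PDH isoform X2 (3 models) had 39.2, 39.3 and 30.9 FPKM in SM plants, 37.8, 42.9 and 55.6 FPKM in S plants, 33.6, 36.1 and 24.7 FPKM in M plants, and 21.3, 31.1 and 20.4 FPKM in CK plants. It rose by 0.86 in S plants against CK plants (SE 0.22, adjusted p = 0.0310), with an overall salt effect of 0.52 (adjusted p = 0.0352). The S vs CK call was lost without CK replicate 1 or 3 or S replicate 2 or 3 (0.0517 to 0.109), and the overall one in 8 of 12 fits without 1 library. Plastid G6PDH2 (18 models) had 46.4, 57.1 and 37.0 FPKM in SM plants, 31.1, 41.5 and 26.4 FPKM in S plants, 60.0, 84.2 and 60.1 FPKM in M plants, and 45.96, 29.8 and 47.0 FPKM in CK plants. Its overall salt effect was -0.55 (adjusted p = 0.0457), a call that held in 3 of 12 fits without 1 library, and the S and CK libraries overlapped.

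For 6PGDH, the plastid form 6PGDH1 (6 models) had 37.6, 37.8 and 39.7 FPKM in SM plants, 27.8, 35.7 and 28.4 FPKM in S plants, 51.9, 53.7 and 47.9 FPKM in M plants, and 43.3, 37.2 and 58.7 FPKM in CK plants. Its overall salt effect was -0.52 (SE 0.13, adjusted p = 0.0146). 6PGDH3 (5 models) had 76.8, 56.99 and 63.7 FPKM in SM plants, 89.2, 79.7 and 93.2 FPKM in S plants, 67.3, 76.0 and 56.9 FPKM in M plants, and 61.4, 62.5 and 65.7 FPKM in CK plants. All 3 S libraries lay above the other 9, but neither its difference of 0.43 between S and CK plants (adjusted p = 0.0843) nor that of -0.43 between SM and S plants (adjusted p = 0.462) passed.

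**Figure D3:**
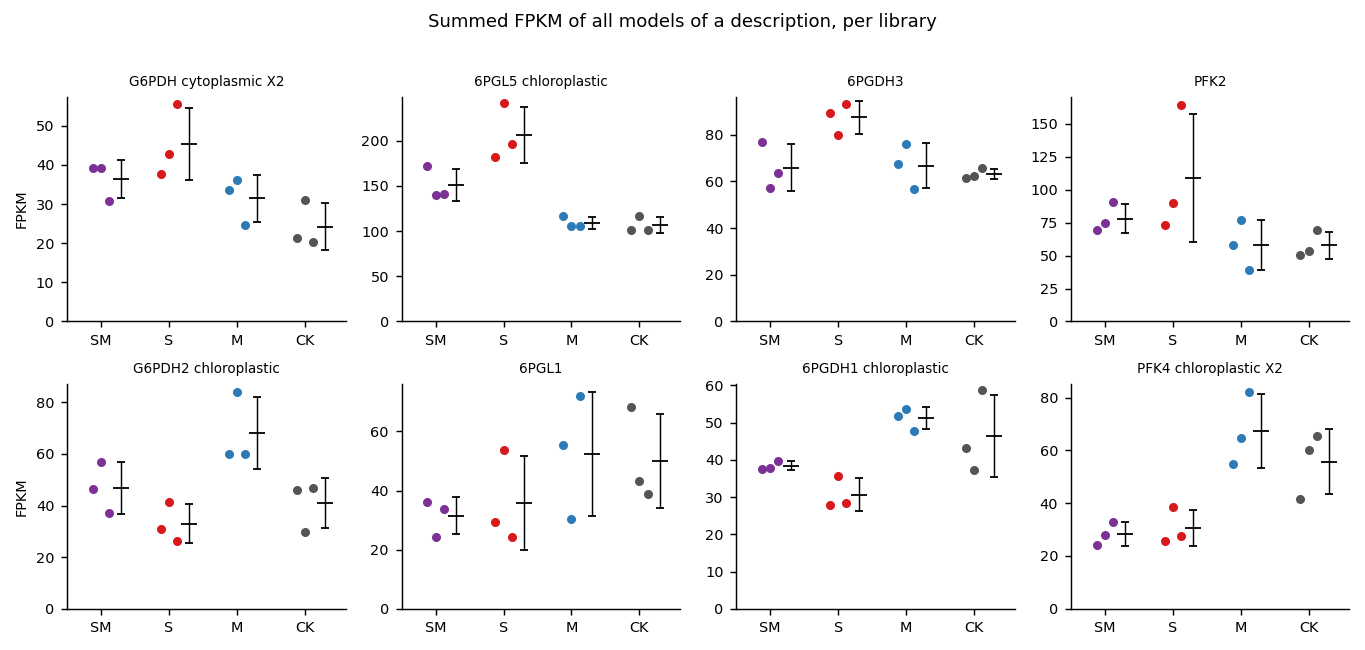
Summed FPKM per library of 4 pairs of isoforms (G6PDH, 6PGL, 6PGDH and PFK) in SM, S, M and CK plants; each column of panels is 1 enzyme, points are libraries and bars are the mean with its SD (n = 3). The pairs were picked by hand, and the other sums of G6PDH, 6PGDH and PFK are not shown. In the upper row the S libraries tended to stand above CK, as for 6PGL5 with 182 to 242 FPKM against 101 to 117 FPKM. In the lower row they tended to lie below, as for PFK4 with 25.5 to 38.6 FPKM against 41.8 to 65.4 FPKM.

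Expressed as shares, 6PGDH1 made up 32.2% to 39.0% of the 6PGDH sum in SM plants, 23.1% to 30.3% in S plants, 41.4% to 45.2% in M plants and 37.3% to 46.3% in CK plants. 6PGL5 made up 80.8% to 85.2% of the 6PGL sum in SM plants, 81.8% to 89.0% in S plants, 59.4% to 77.7% in M plants and 59.7% to 73.0% in CK plants. G6PDH2 made up 30.7% to 41.5% of the G6PDH sum in SM plants, 18.6% to 31.4% in S plants, 45.9% to 53.4% in M plants and 29.9% to 46.3% in CK plants. Within both 6PGDH and 6PGL the shares of S and CK plants were separate, whereas those of G6PDH2 overlapped.

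Transaldolase, which moves a dihydroxyacetone unit between sugar phosphates, was not called in any comparison, by model or by sum, but its total did not overlap between salt-treated plants with and without melatonin. Its 6 members had 476, 431 and 386 FPKM in SM plants, 243, 335 and 337 FPKM in S plants, 466, 428 and 431 FPKM in M plants, and 407, 348 and 382 FPKM in CK plants. The SM libraries lay above the S libraries (ratio of means 1.41), the M above the CK libraries (1.17) and the S below the CK libraries (0.805). These totals have no test, and the sums by description did not pass: transaldolase MS.gene71914, the only model of its description, differed by 0.70 between SM and S plants (adjusted p = 0.505), and the sum described as LOC11410681 by 0.58 between SM and S plants (adjusted p = 0.505) and by 0.68 between M and CK plants (adjusted p = 0.543). The sum described as LOC11406940 (9 models) lay the other way, with -0.35 between SM and S plants (adjusted p = 0.832) and -0.23 between M and CK plants (adjusted p = 0.954). MS.gene71914 had 243, 253 and 167 FPKM in SM plants, 96.01, 155 and 148 FPKM in S plants, 166, 125 and 184 FPKM in M plants, and 196, 153 and 139 FPKM in CK plants.

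The enzymes that use pentoses showed no call by edgeR in any comparison. PRS members averaged 51.2 ± 7.97 FPKM in SM plants, 49.4 ± 9.13 FPKM in S plants, 57.1 ± 3.29 FPKM in M plants and 48.5 ± 2.20 FPKM in CK plants, and MS.gene45408 on chromosome 8.3 was the most abundant of them. The ribokinase members averaged 9.46 ± 0.521 FPKM in SM plants, 7.33 ± 5.67 FPKM in S plants, 5.83 ± 2.32 FPKM in M plants and 10.2 ± 1.38 FPKM in CK plants. The gluconokinase MS.gene009154 stayed between 0.706 and 4.90 FPKM in the 12 libraries.

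PFP, which interconverts fructose-6-phosphate and fructose-1,6-bisphosphate with pyrophosphate, was carried mostly by its catalytic beta subunit. That sum was 129 ± 25.3 FPKM in SM plants, 158 ± 15.2 FPKM in S plants, 143 ± 9.24 FPKM in M plants and 142 ± 17.8 FPKM in CK plants, and was not called. A rarer sum described as putative diphosphate-fructose-6-phosphate 1-phosphotransferase (6 models) had 10.3, 11.5 and 10.8 FPKM in SM plants, 11.1, 7.82 and 11.4 FPKM in S plants, 8.50, 7.69 and 4.20 FPKM in M plants, and 2.94, 3.97 and 4.50 FPKM in CK plants. It rose by 1.45 in SM plants (SE 0.28, adjusted p = 0.0134) and by 1.37 in S plants (adjusted p = 0.0105), each against CK plants, and the salt-treated libraries stood above those of CK plants. Its overall salt effect was 1.03 (adjusted p = 0.00375), and these 3 calls were kept without any 1 library.

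Phosphoglucomutase links the hexose phosphates to starch and sucrose metabolism. Its plastid isoform X2 (2 models) had 27.8, 36.7 and 29.1 FPKM in SM plants, 12.01, 15.1 and 26.9 FPKM in S plants, 18.6, 13.9 and 5.17 FPKM in M plants, and 12.5, 7.30 and 9.63 FPKM in CK plants. Isoform X1 (2 models) was rarer and had 11.8, 9.35 and 7.86 FPKM in SM plants, 3.64, 3.54 and 6.29 FPKM in S plants, 6.95, 2.33 and 2.06 FPKM in M plants, and 2.57, 2.32 and 3.03 FPKM in CK plants. In both, the SM libraries stood above all others, but edgeR called neither sum between SM and S plants or between SM and M plants. The adjusted p was 0.620 for isoform X2 and 0.5145 for isoform X1 against S plants. Against M plants it was 0.0873 for isoform X2 and 0.105 for isoform X1. The difference between SM and CK plants was 1.60 for isoform X2 (SE 0.42, adjusted p = 0.0452) and 1.80 for isoform X1 (adjusted p = 0.0414), and both calls were lost whenever any 1 of those 6 libraries was left out (0.0698 to 0.137 for isoform X2 and 0.0633 to 0.126 for isoform X1). The overall salt effect was 1.07 for isoform X2 (adjusted p = 0.0238), called in 8 of 12 fits without 1 library, and 1.02 for isoform X1 (adjusted p = 0.0423), called in 3 of 12. The single model described as cytoplasmic phosphoglucomutase, MS.gene063692 on an unplaced contig, averaged 21.2 ± 2.10 FPKM in SM plants, 22.5 ± 5.48 FPKM in S plants, 19.3 ± 5.34 FPKM in M plants and 20.1 ± 1.49 FPKM in CK plants. The 2 models described as phosphoglucomutase, cytoplasmic, summed to 12.3 ± 9.67 FPKM in SM plants, 16.4 ± 8.04 FPKM in S plants, 19.1 ± 14.01 FPKM in M plants and 10.3 ± 6.78 FPKM in CK plants.

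Glucose-6-phosphate isomerase, which connects glucose-6-phosphate with glycolysis, had cytosolic copies with opposite orders of the groups. MS.gene20555 (chromosome 6.3) had 21.0, 21.6 and 17.2 FPKM in SM plants, 8.69, 19.4 and 14.6 FPKM in S plants, 11.1, 15.8 and 3.75 FPKM in M plants, and 9.88, 5.98 and 6.23 FPKM in CK plants, a difference of 1.43 between SM and CK plants that did not pass (adjusted p = 0.231). MS.gene56743 (chromosome 6.2) had 1.09, 6.03 and 6.44 FPKM in SM plants, 10.4, 6.82 and 6.04 FPKM in S plants, 10.8, 11.7 and 8.10 FPKM in M plants, and 15.1, 15.4 and 14.5 FPKM in CK plants, and its difference of -1.74 between SM and CK plants did not pass (adjusted p = 0.204). The 2 copies crossed while the cytosolic sum stayed at 24.4 ± 2.86 FPKM in SM plants, 22.0 ± 3.76 FPKM in S plants, 20.4 ± 7.96 FPKM in M plants and 22.4 ± 2.27 FPKM in CK plants.

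**Figure D4:**
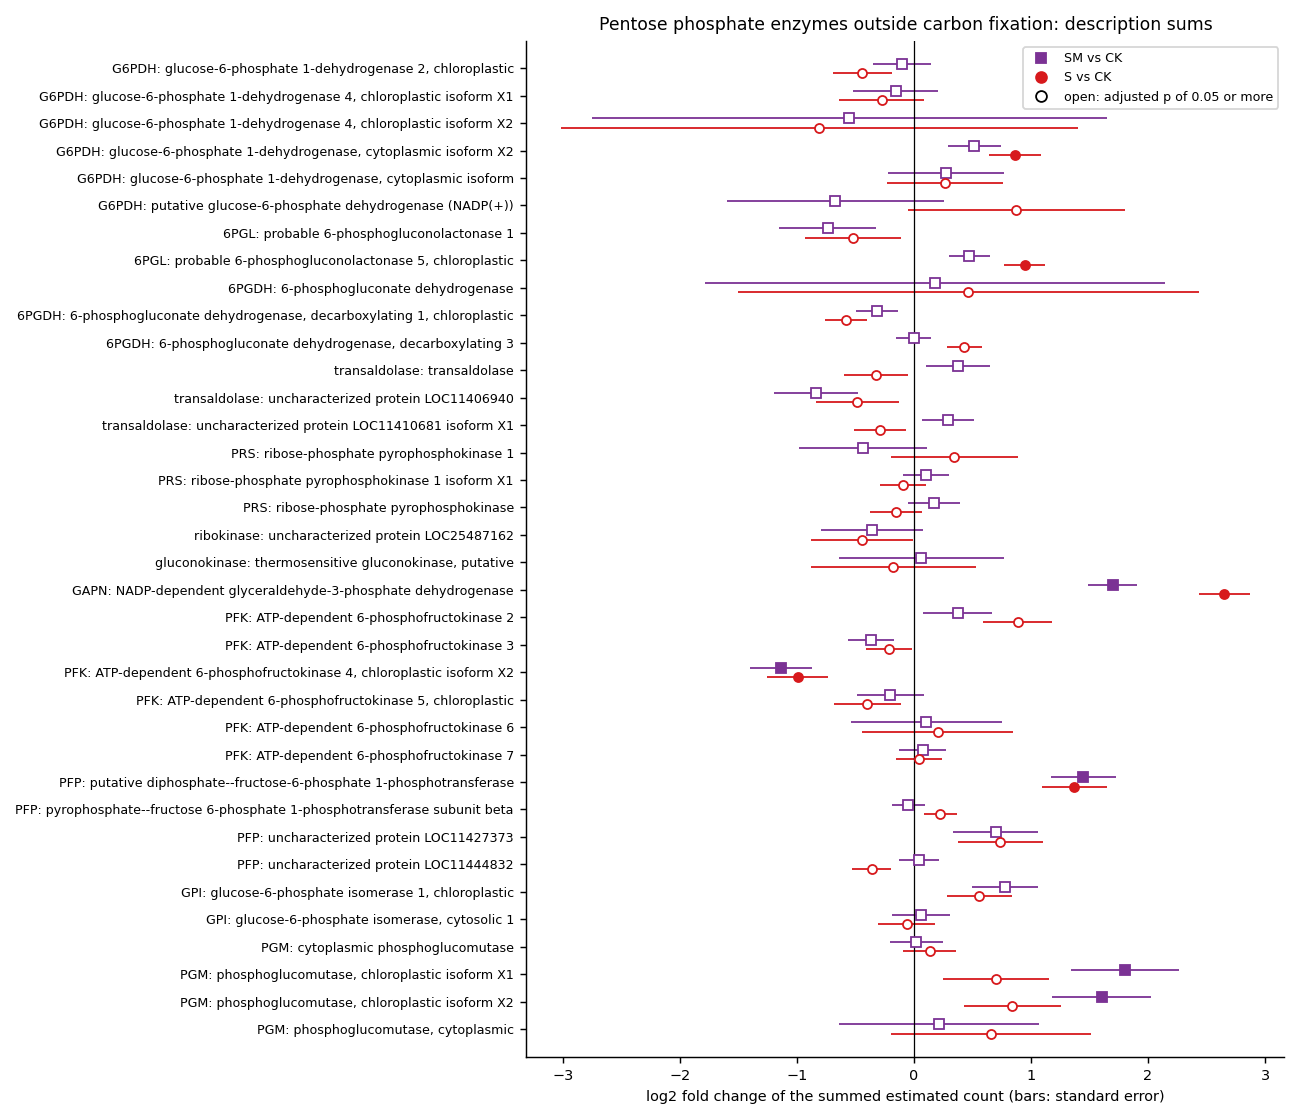
Log2 fold change of the summed estimated count of each pentose phosphate enzyme description, SM against CK (squares) and S against CK (circles), with bars for the standard error; filled symbols passed an adjusted p of 0.05 in edgeR's quasi-likelihood test. Among the circles GAPN stands farthest to the right, at 2.65 in S plants, and among the squares plastid PGM isoform X1 is at 1.80 and GAPN at 1.70 in SM plants, while PFK4 is the filled pair on the left.

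Over the whole set, 5 of the 36 description sums passed in S plants against CK plants (4 higher: GAPN, 6PGL5, cytoplasmic G6PDH X2 and the putative PFP; 1 lower: PFK4), beside 12.2% of all description sums. In SM plants against CK plants 5 passed (4 higher: GAPN, the putative PFP and both plastid PGM isoforms; 1 lower: PFK4), beside 7.31% of all sums. In SM plants against M plants GAPN was higher and PFK4 lower, 2 of 36 beside 6.98%. For the overall salt effect 10 passed, 7 higher and 3 lower, beside 22.8%. These counts were close to the share of the whole table except between SM and CK plants, where they were higher, and the median log2 fold change of the 36 sums was 0.0864 between S and CK plants, against 0.00473 over all sums. DESeq2 called 8 sums between S and CK plants, beside 21% of all sums, and 4 between SM and M plants, beside 15.7%. Without 1 library, 3 to 5 sums passed between S and CK plants, 2 to 3 between SM and CK plants and 5 to 9 for the overall salt effect. For those fits the share of all sums was not taken.

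At the level of single models, 4 of the 146 members passed in S plants against CK plants (2 higher and 2 lower), where 1.54% of all tested models did. In SM plants against CK plants 1 passed, with 0.342% of all models, in SM plants against M plants 1 was higher and 1 lower, with 0.249%, and for the overall salt effect 4 were higher and 5 lower, with 6.4%. Without 1 library, 1 to 3 members passed between S and CK plants, 0 between SM and CK plants, 0 to 1 between SM and M plants and 7 to 9 for the overall salt effect. For those fits the share of all models was not taken. DESeq2 called 15 members between S and CK plants, with 10.6% of all models, 14 between SM and CK plants, with 7.38%, 7 between SM and M plants, with 7.44%, and 20 for the overall salt effect, with 16.4%. The study's methods set a more than 2-fold change and an unadjusted p under 0.05, with DESeq2. The same thresholds on edgeR's p put 16 members higher and 7 lower in S plants against CK plants. Of all models, 7.79% and 6.41% were. In SM plants against CK plants 19 were higher and 6 lower, where 6.16% and 5.46% of all models were. Groups did not overlap for 26 members higher and 19 lower in S plants against CK plants, beside 12.8% and 13.7% of all models, and for 21 higher and 11 lower in SM plants against CK plants, beside 12.8% and 12%. The median log2 fold change of the members was 0.11 between S and CK plants and 0.07 between SM and CK plants, against 0.05 and 0.04 over all models.

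The counts by branch in S plants against CK plants stand beside 7.79% of all models higher and 6.41% lower, with a median of 0.05. Of the 63 members shared with glycolysis, 12 were past the thresholds upward and 4 downward, with a median of 0.34. The 12 were 5 PFP, 4 GAPN and 3 PFK models. Of the 42 oxidative members, 3 were higher and 1 lower, with a median of 0.07. The 6 transaldolase members had a median of -0.29 and none past the thresholds. No difference between branches was tested.

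Melatonin without salt gave no call by edgeR. In M plants against CK plants, edgeR called 0 of the 146 members beside 0.0118% of all models, 12 members had an unadjusted p under 0.05, and DESeq2 called 4 beside 1.68% of all models. By the study's thresholds on edgeR's p, 7 members were higher and 3 lower, beside 2.87% and 1.95% of all models. None of the 36 sums passed in edgeR, beside 0% of all sums, with 3 at an unadjusted p under 0.05. The largest fitted difference was that of GAPN MS.gene042287, given above with no count in any M plant (adjusted p = 0.684), and the next ones were in rarer copies. MS.gene82779, a plastid G6PDH2 model on chromosome 6.1, had 2.35, 10.9 and 2.08 FPKM in M plants against 0.428 and 0.0632 FPKM and no count in CK plants (log2 fold change 4.82, adjusted p = 0.809). MS.gene45388, another G6PDH2 model on chromosome 4.4, had 3.06, 0.0545 and 1.56 FPKM in M plants and no count in CK plants, at least 26.3-fold higher against the floor of 3 counts, or 14.7-fold without M replicate 1 (adjusted p = 0.892). The sum over all G6PDH2 models differed by 0.55 between M and CK plants (adjusted p = 0.695).

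Other large differences between M and CK plants were in PFK7 and transaldolase copies. MS.gene069886, a PFK7 model on chromosome 2.1, had 1.20, 5.62 and 2.91 FPKM in M plants against 0.653, 0.130 and 0.365 FPKM in CK plants (3.02, adjusted p = 0.830). MS.gene011506, a transaldolase model on chromosome 8.2, had 9.37, 5.89 and 5.07 FPKM in M plants against 24.5, 19.5 and 19.4 FPKM in CK plants (-1.67, adjusted p = 0.848).

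Melatonin in the presence of salt gave no call by edgeR either. In SM plants against S plants edgeR called 0 members beside 0.0177% of all models, with 5 at an unadjusted p under 0.05, and DESeq2 called 1 beside 1.6%. By the study's thresholds on edgeR's p, 1 member was higher and 1 lower, beside 2.31% and 2.45% of all models. None of the 36 sums passed in edgeR, beside 0% of all sums, although 7 had an unadjusted p under 0.05, and DESeq2 called 1 beside 1.76%. MS.gene006359, a plastid PGM X2 model on chromosome 1.1, had 21.8, 18.5 and 15.4 FPKM in SM plants against 2.12, 5.29 and 12.6 FPKM in S plants, a difference of 1.43 that did not pass (adjusted p = 0.856). For the overall melatonin effect edgeR called 0 members beside 0.0216% of all models, with 12 at an unadjusted p under 0.05 and 7 called by DESeq2 beside 1.8%. For the interaction it called 0 beside 0.0275%, with 7 at an unadjusted p under 0.05 and 2 called by DESeq2 beside 1.89%.

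Among the members described as other proteins, the acyl carrier proteins of plastid fatty acid synthesis had the highest levels. MS.gene002785 on chromosome 2.1 averaged 66.2 ± 11.8 FPKM in SM plants, 95.0 ± 23.1 FPKM in S plants, 82.1 ± 19.4 FPKM in M plants and 66.8 ± 15.1 FPKM in CK plants. A rare copy, MS.gene041506 on chromosome 8.2, had 1.61, 0.892 and 6.57 FPKM in S plants and no count in CK plants, at least 27.4-fold higher against the floor of 3 counts, or 11.3-fold without S replicate 3 (adjusted p = 0.159). The OSB1 members, named for a mitochondrial DNA-binding protein, averaged 47.3 ± 2.70 FPKM in SM plants, 48.7 ± 7.81 FPKM in S plants, 48.6 ± 12.4 FPKM in M plants and 59.4 ± 0.702 FPKM in CK plants, and the purine permeases averaged 33.7 ± 15.1, 20.4 ± 1.26, 27.0 ± 5.65 and 32.2 ± 9.76 FPKM in SM, S, M and CK plants. Of the members described as other proteins, MS.gene050199 was the only one that edgeR called.

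The neighbouring pathways give the setting. Of the 83 models that carry both the pentose phosphate and the carbon fixation annotation (transketolase, ribose-phosphate isomerase, ribulose-phosphate epimerase and aldolase among them), 24 were higher and 4 lower by the thresholds in S plants against CK plants, where 7.79% and 6.41% of all models were, and 20 were called higher and 1 lower for the overall salt effect, beside 6.4% of all models called. Of 177 carbon fixation models outside the pentose phosphate pathway, 35 were higher and 7 lower, and 28 were called higher and 1 lower for the overall salt effect. Of 261 glycolysis models in neither, 21 were higher and 14 lower, and 9 were called higher and 7 lower. Among 15 models of other NADPH sources (NADP-malic enzyme and NADP-isocitrate dehydrogenase), 1 was higher and 4 were lower in S plants against CK plants, and among 21 glutathione and monodehydroascorbate reductase models, which use NADPH, 4 were higher and 1 was lower. No model of these last 2 lists was called for the overall salt effect by edgeR.

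Of the marker lists of cell types and leaf stage, only that of green leaf separated all salt-treated libraries from all others. Summed over 101 models, markers of green leaf (small subunit of Rubisco and chlorophyll-binding proteins) had 27359 to 32745 FPKM in SM plants, 28209 to 48119 FPKM in S plants, 7148 to 23714 FPKM in M plants and 11845 to 19917 FPKM in CK plants, with 10 models at 0 in every library. The 49 models of senescing leaf summed to 73.9 to 126 FPKM in SM plants, 48.1 to 112 FPKM in S plants, 117 to 254 FPKM in M plants and 148 to 354 FPKM in CK plants. The 147 epidermis and cuticle models summed to 214 to 342 FPKM in SM plants, 144 to 299 FPKM in S plants, 211 to 551 FPKM in M plants and 283 to 436 FPKM in CK plants. Of 72 root and nodule models 63 were at 0 in every library. The sum of the 72 was 0.0072 to 0.525 FPKM in SM plants and 0.0824 to 0.580 FPKM in S plants. It was 1.46 to 40.6 FPKM in M plants and 0.374 to 32.6 FPKM in CK plants. The part of these marker levels in the differences of the pentose phosphate genes was not tested.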

How the data were processed

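Leaf RNA libraries (12) were processed by the authors, who trimmed reads with Cutadapt, aligned them with HISAT2 2.0.4 and assembled and quantified gene models with StringTie; the genome build is not given in the sources used here. The deposited tables give FPKM per gene model, calculated by the authors, and expected counts (estimated counts per model, deposited as whole numbers), both for 164632 models. Here, counts of 50931 models (FPKM averaging 1 or more) were fitted with edgeR 4.0.16 in R 4.3.3 (TMM normalization, quasi-likelihood F test, 1 mean per group, 12 libraries in 1 fit), and p-values were adjusted over all models by the Benjamini-Hochberg method; adjusted p under 0.05 was called. Standard errors restate that test. The overall salt effect is the mean of S against CK and SM against M; the interaction is SM against S minus M against CK. Counts summed over models with the same description were fitted likewise. Each library held 45862158 to 57192229 counts, and a floor of 3 counts covers counting error only. Exact permutation of 3 against 3 libraries cannot go below p = 0.1, so no single-gene permutation test was used. Each p-value sets a difference between groups against the spread among biological replicates within groups. That spread was estimated over all 4 groups together, with information shared over models.

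Members were assigned to enzymes by description. Named models were those called in any comparison, the most abundant model of each enzyme, and the neighbours of the FPKM threshold. Up to 3 higher and 3 lower per comparison were also named, with the largest fold changes among non-overlapping ones past the study's thresholds. These were a fold change above 2 or below 0.5 and an unadjusted p under 0.05, taken here from edgeR. MS.gene33139 and MS.gene042286 are given to complete the 7 GAPN models. The members and lists were chosen with earlier results of these data known. Alternatives were DESeq2 1.42.0, its size factors, no filter, the 6 libraries of a comparison alone, the replicate number as a block, limma 3.58.1 on log2(FPKM + 1) and log2(FPKM + 0.1), sums by description, and leaving out each library. The fits were tested on simulated data.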

Additional observations from a re-analysis of the deposited data

How the results depend on the processing

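Direction was checked for 58 fold changes of named models and sums, and none reversed under any alternative. They were picked mainly because they were called or were large with separate groups, so a reversal was unlikely. Counts of calls carry no direction. Of 849 alternative values for the named models and sums, 688 kept their side of the threshold, 146 lost a call and 15 gained one. The 849 include results that were not called and could lose no call, so the 146 are a larger share of the called ones. DESeq2 gave no adjusted p for MS.gene042287 and MS.gene015846, and these values were not counted. Replicate numbers did not pair the libraries: same-numbered libraries of different groups had correlations of their deviations of -0.0820 to 0.0451 (18 pairs). With the replicate block, 1 member was called between S and CK, 0 between SM and CK and 0 between SM and M, and 3 description sums between SM and CK, against 4, 1, 2 and 5 without it. Without the filter on low values, 1 member was called between S and CK, 0 between SM and CK and 0 between SM and M, 3 sums between SM and CK and 6 sums for overall salt. With the 6 libraries of a comparison alone, 0 members were called between S and CK, SM and CK and SM and M, 1 was past the fold and p thresholds between SM and S, and 3 sums were called between S and CK. DESeq2 called 4 members between M and CK, 15 between S and CK, 14 between SM and CK, 1 between SM and S, 7 between SM and M, 20 for overall salt, 7 for overall melatonin and 2 for the interaction, put 6 past the thresholds between SM and S, and called 8 sums between S and CK, 1 between SM and S and 4 between SM and M. On log2(FPKM + 1), limma called 7 members between S and CK and 2 between SM and CK and put 5 past the thresholds between SM and S; on log2(FPKM + 0.1) it called 7 between S and CK and put 4 past them between SM and S. Summed by description, 5 of the enzymes' descriptions were called between SM and CK, against 1 single member. The cause of these differences was not tested. Shares of all models or sums called were taken only for the main fit and for DESeq2. Counts under the other settings therefore cannot be set against the whole table.

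Leaving out 1 library in turn, members called ranged from 1 to 3 between S and CK, 0 to 0 between SM and CK, 0 to 1 between SM and M and 7 to 9 for overall salt, and stayed at 0 to 0 between M and CK, SM and S, overall melatonin and the interaction. Members past the thresholds ranged from 7 to 14 between M and CK, 17 to 23 between S and CK, 15 to 26 between SM and CK and 2 to 8 between SM and S. Sums called ranged from 3 to 5 between S and CK, 2 to 3 between SM and CK, 1 to 3 between SM and M and 5 to 9 for overall salt. The shares of all models and sums called were not taken in these fits, so the ranges describe the members and sums alone.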
